A study of Mus musculus with 16 samples.

Results

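The megakaryocyte and platelet genes described here are 9 genes, Gp5, Gp9, Gp1bb, Itga2b, F2rl2, Vwf, Selp, Pf4 and Ppbp, whose transcripts are made by megakaryocytes and carried by platelets. They were taken by symbol, and all 11 probes annotated to them were used, out of 16593 gene symbols with a probe on the array. Their levels were followed in 4 groups of 4 mice of the strain C3H/HeJ, with 1 one-colour bead array per mouse: Ali35 bone and wild-type (WT) bone at 120 days of age, and Ali35 brain and WT brain at 3 days of age. The Ali35 line carries a mutated Shc2, which encodes an adaptor of receptor tyrosine kinase signalling. The labels gave neither the zygosity nor the kind of mutation, and no other allele or agent. Tissue and age cannot be told apart. Replicate numbers name different mice, so the errors below cover the spread between animals.

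Megakaryocytes are the very large cells of the bone marrow that shed platelets into the blood. Platelets stick to damaged vessel walls when their glycoprotein Ib-IX-V receptor catches von Willebrand factor, clump together through the integrin alpha-IIb beta-3, and release chemokines and adhesion molecules from alpha granules. Transcription factors of the GATA and Ets families drive many of these genes in the megakaryocyte. Whole bone holds marrow, vessels and muscle beside bone cells, and in such bulk tissue fewer cells of a type and less RNA per cell cannot be told apart. Values are background-subtracted linear intensities as deposited, which have no unit and can fall below 0, and an intensity of 16 was used as the floor of measurement. The level of one probe cannot be set against that of another.

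Arrays of the same group had correlations across probes of 0.977 to 0.991 (bone) or 0.983 to 0.992 (brain). After the filter on dim probes, 12223 probes were tested in bone and 10922 in brain. The tissue labels were checked against marker lists: 7 of 8 bone genes with a probe, Col1a1 and Sp7 among them, passed the filter in bone and 2 in brain, while 7 of 10 neuron genes passed in brain and 2 in bone. One bone array stood apart. On Ali35 bone replicate 1 the 2 probes of Xist, the RNA of the inactive X chromosome, read 221 and 167, with highest values elsewhere in bone of 11.7 and 7.17, and the Y-linked gene Eif2s3y read -2.50, against 409.6 to 686. The labels gave no sex, so the main counts in bone are also given without that array.

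The 9 genes lie on 6 chromosomes of the mouse assembly GRCm38.p6. Pf4 and Ppbp, both genes of platelet chemokines, are neighbours on chromosome 5 with 2371 bases between them (Ppbp at 90768518 to 90770063, Pf4 at 90772435 to 90773383). Gp5 spans chr16:30307685-30310781 and Gp1bb chr16:18620319-18622403, where it overlaps the end of Septin5, a gene of the septin cytoskeleton. F2rl2 (chr13:95696920-95702768) lies inside the span of Iqgap2, which encodes a scaffold protein. Gp9 (chr6:87776131-87779786) and Vwf (chr6:125552948-125686679) share chromosome 6. Itga2b spans chr11:102453297-102469883 and Selp chr1:164115264-164150026. The spans run from 949 bases for Pf4 to 133732 bases for Vwf.

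RefSeq promoter windows (GRCm38.p6, 250 bases before to 50 bases after the start of the gene) were matched for 8 of the 9 genes, all but Vwf. For 7 of them the window lies at the start of the annotated gene span, and for Gp9 it is set on a start site 1939 bases further in. They were searched on both strands for the GATA factor motifs AGATAA plus TGATAA plus AGATAG plus TGATAG and for the Ets factor motifs GGAAGT plus GGAAAT. Of the 8 windows, 4 held a GATA motif, against 29.8% of 32851 windows of all genes, and 6 held an Ets motif, against 37.1%. Among the 7 windows at the start of the span the counts were 4 and 5. No GATA motif overlapped an Ets motif. The 4 windows with a GATA motif are printed 5′ to 3′ on the strand of the gene, with that motif, or its reverse complement, in capitals, because they show the motif both in genes that rose in Ali35 bone (Gp5 and F2rl2) and in genes that were not called (Pf4 and Gp1bb). The windows are chr16:30310732-30311031, minus strand, for Gp5, chr13:95696670-95696969, plus strand, for F2rl2, chr5:90772185-90772484, plus strand, for Pf4 and chr16:18622354-18622653, minus strand, for Gp1bb.
Gp5: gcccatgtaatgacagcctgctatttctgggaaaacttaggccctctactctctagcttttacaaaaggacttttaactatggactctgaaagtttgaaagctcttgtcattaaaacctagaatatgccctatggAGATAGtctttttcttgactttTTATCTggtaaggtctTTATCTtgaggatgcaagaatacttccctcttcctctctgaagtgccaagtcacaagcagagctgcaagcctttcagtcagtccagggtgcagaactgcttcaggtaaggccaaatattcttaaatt
F2rl2: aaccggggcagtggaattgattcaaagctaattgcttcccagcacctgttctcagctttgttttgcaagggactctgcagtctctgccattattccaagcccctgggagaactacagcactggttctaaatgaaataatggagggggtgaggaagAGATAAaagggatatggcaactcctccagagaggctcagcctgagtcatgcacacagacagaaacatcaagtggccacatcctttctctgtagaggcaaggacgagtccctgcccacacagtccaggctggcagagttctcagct
Pf4: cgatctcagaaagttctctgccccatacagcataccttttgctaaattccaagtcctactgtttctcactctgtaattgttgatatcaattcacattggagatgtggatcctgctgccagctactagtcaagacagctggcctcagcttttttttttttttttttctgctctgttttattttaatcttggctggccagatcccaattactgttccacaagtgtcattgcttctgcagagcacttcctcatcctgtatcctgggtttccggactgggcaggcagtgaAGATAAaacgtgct
Gp1bb: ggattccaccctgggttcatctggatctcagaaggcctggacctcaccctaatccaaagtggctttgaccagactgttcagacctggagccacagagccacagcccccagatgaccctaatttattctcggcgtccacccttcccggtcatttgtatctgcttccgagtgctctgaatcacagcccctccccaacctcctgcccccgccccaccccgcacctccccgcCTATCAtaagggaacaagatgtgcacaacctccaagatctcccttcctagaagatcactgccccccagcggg
The Gp5 window holds 3 GATA motifs, which begin at positions -115, -93 and -77 from the start of the gene. The single motif of F2rl2 begins at -95, that of Gp1bb at -22 and that of Pf4 at 36, after the start. The windows of Itga2b, Selp, Gp9 and Ppbp hold Ets motifs and no GATA motif of these letters.

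The first comparison set Ali35 bone against WT bone of the same age. In Ali35 bone 5 of the 9 genes rose: Vwf, Selp, Itga2b, Gp5 and F2rl2, by 1.33-fold to 2.16-fold. Folds are those of the fit on the log2 scale and can differ slightly from the ratio of the mean intensities. The other 4, Pf4, Ppbp, Gp9 and Gp1bb, did not pass the test, and none of the 9 genes was called lower. All 11 probes passed the filter in bone, and 6 of them were called higher (limma, Benjamini-Hochberg adjusted p under 0.05 over all 12223 probes), against 12.7% of all probes called higher, 11.9% called lower and 24.6% called in either direction. Their median log2 change was 0.41, against -0.04 over all probes tested. The 9 genes were chosen with earlier results of these data known, so these contrasts with all probes are a description and not a test. Without Ali35 replicate 1, 5 probes were called: probe 1 of Itga2b was lost (adjusted p = 0.0987), and the log2 changes of Vwf, Selp, Gp5 and F2rl2 were 1.05, 0.82, 0.50 and 0.48.

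**Figure D1:**
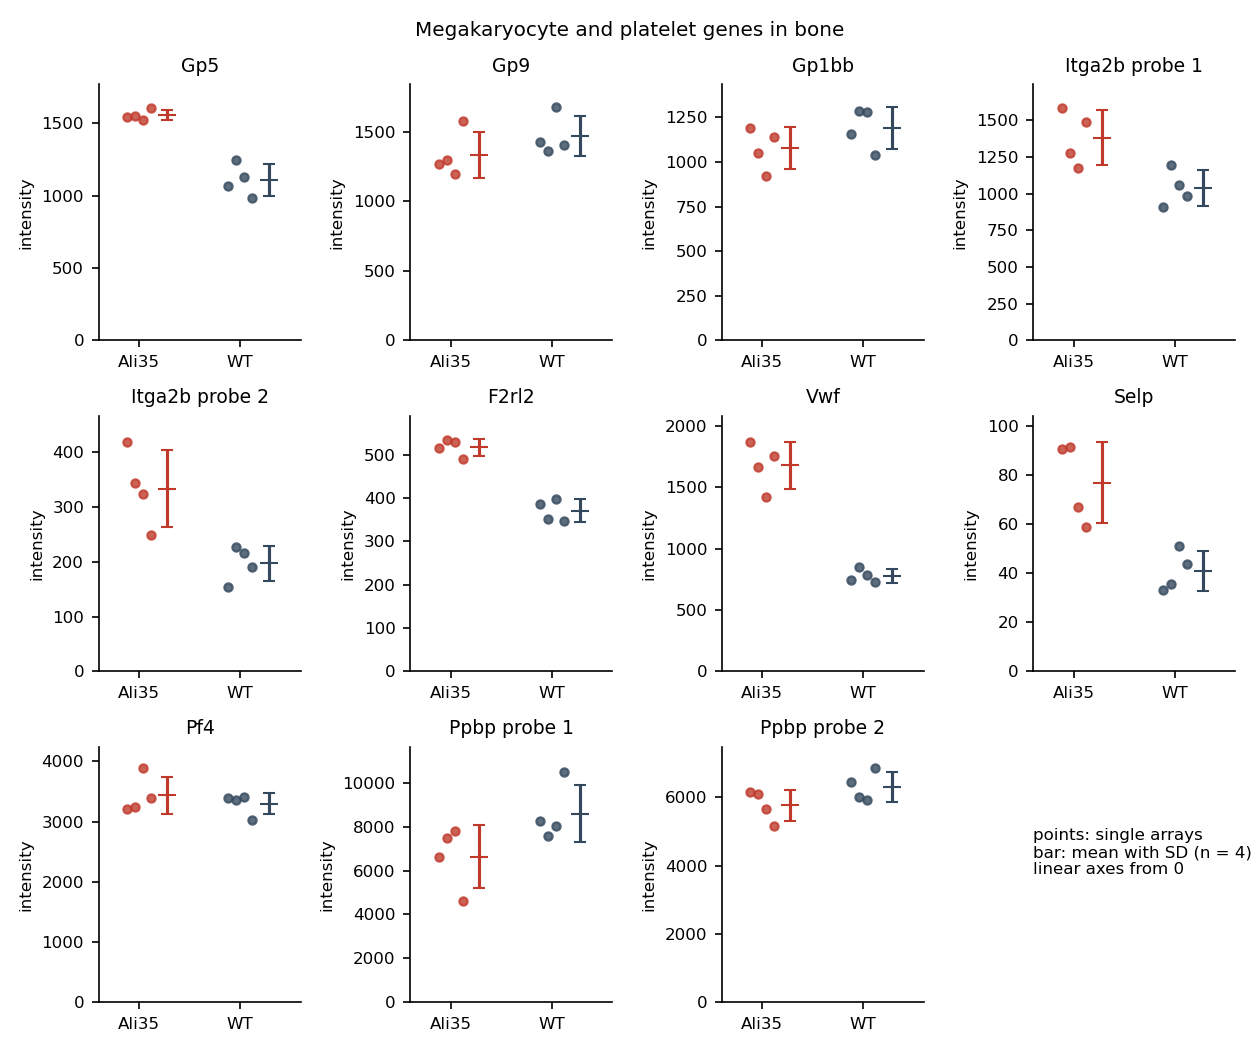
Intensity (linear axis from 0) of each of the 11 probes on the 4 Ali35 and 4 WT bone arrays, as points, with the mean and SD of each group (n = 4 mice). The Ali35 points lie wholly above the WT points for Gp5, F2rl2, Vwf, Selp and the second Itga2b probe, and the groups overlap for the other 6 probes.

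Among the subunits of the platelet receptor for von Willebrand factor, Gp5 rose while Gp9 and Gp1bb did not pass the test. Gp5 read 1546, 1551, 1521 and 1605 on the Ali35 bone arrays, against 1066, 1245, 1129.9 and 985 on the WT bone arrays. The groups were apart, and the Ali35 mice lay within a narrow range. The means were 1556 ± 35.5 in Ali35 and 1107 ± 110.0 in WT (SD, n = 4 each), a 1.41-fold rise (log2 change 0.50 ± 0.10 SE, adjusted p = 0.00894, limma).

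Gp9, which encodes the glycoprotein IX subunit, read 1269.9, 1294, 1193 and 1575 in Ali35 bone, against 1423, 1365, 1678 and 1404 in WT bone. Only Ali35 replicate 4 lay among the WT values; the other 3 lay below all of them. The log2 change was -0.14 ± 0.12 with a 95% interval from -0.41 to 0.13 (adjusted p = 0.412, limma). Gp1bb, which encodes the beta chain of glycoprotein Ib, read 1192, 1052, 921 and 1141 in Ali35 bone, against 1154, 1286, 1282 and 1039 in WT bone. The groups overlapped over most of their range, with a log2 change of -0.15 ± 0.12 and an interval from -0.41 to 0.12 (adjusted p = 0.399, limma). Septin5, which overlaps Gp1bb, averaged 232 in Ali35 bone and 175 in WT bone (log2 change 0.41 ± 0.16, adjusted p = 0.0888). No probe was annotated to Gp1ba, the gene of the chain that binds von Willebrand factor.

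Itga2b encodes the alpha-IIb chain of the platelet fibrinogen receptor, known on megakaryocytes as CD41, and was measured by 2 probes. The brighter one, called probe 1 here, read 1579.9, 1277, 1177 and 1487 in Ali35 bone, against 911, 1196, 1056 and 987 in WT bone. Ali35 replicate 3 lay just below WT replicate 2, so the groups overlapped by this pair. The rise was 1.33-fold (log2 change 0.41 ± 0.13, adjusted p = 0.0470, limma), and the call was lost in 6 of the 8 fits that left out 1 array, with adjusted p up to 0.125 (without WT replicate 1, 3 or 4, or Ali35 replicate 1, 2 or 4).

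Probe 2 of Itga2b read 419, 345, 323 and 249 in Ali35 bone, against 155, 228, 216 and 191 in WT bone, with no overlap. It rose 1.68-fold (log2 change 0.75 ± 0.18, adjusted p = 0.0160) and kept its call in all 8 fits that left out an array, with adjusted p up to 0.0458. The 2 probes therefore had the same direction and different sizes. Itgb3, the gene of the partner chain beta-3, did not pass the filter on dim probes.

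F2rl2 encodes protease-activated receptor 3, which on mouse platelets serves as a thrombin co-receptor. It read 516, 534, 529 and 489 in Ali35 bone, against 387, 351, 399 and 346 in WT bone. All Ali35 values lay above all WT values, and both groups were tight. The means were 517 ± 19.95 in Ali35 and 371 ± 25.9 in WT, a 1.40-fold rise (log2 change 0.48 ± 0.10, adjusted p = 0.00789). Iqgap2, whose span holds F2rl2, averaged 211 in Ali35 bone and 195 in WT bone (log2 change 0.12 ± 0.11, adjusted p = 0.435).

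Vwf, the gene of von Willebrand factor, which megakaryocytes store in alpha granules and endothelial cells in Weibel-Palade bodies, had the largest change of the 9 genes. It read 1871, 1664, 1418 and 1757 in Ali35 bone, against 741, 853, 782 and 724 in WT bone. The lowest Ali35 value was well above the highest WT value. The means were 1677 ± 193 in Ali35 and 775 ± 57.1 in WT, a 2.16-fold rise (log2 change 1.11 ± 0.11, adjusted p = 0.000597).

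Selp encodes P-selectin, the adhesion molecule that moves from the same granules to the surface of activated platelets and endothelial cells. Its probe was the dimmest of the 11 in bone, with 90.6, 91.5, 67.1 and 58.8 in Ali35, against 33.1, 35.7, 51.1 and 43.8 in WT. The groups were apart, with Ali35 replicates 3 and 4 nearest to WT. The rise was 1.87-fold, to 77.0 ± 16.6 in Ali35 against 40.9 ± 8.16 in WT (log2 change 0.91 ± 0.19, adjusted p = 0.00935).

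The genes of the soluble chemokines of the alpha granule did not pass the test. Pf4, the gene of platelet factor 4, read 3218, 3238, 3889.8 and 3394 in Ali35 bone, against 3397, 3356, 3415 and 3031 in WT bone. The groups overlapped, with 1 high Ali35 array and 1 low WT array. The log2 change was 0.06 ± 0.10 with a 95% interval from -0.17 to 0.28 (adjusted p = 0.724, limma), so a rise of the size measured for Vwf or Selp lay outside it. Ppbp, the gene of pro-platelet basic protein, the precursor of the chemokine CXCL7, had 2 bright probes. Probe 1 read 6609, 7476, 7794 and 4609 in Ali35 bone, against 8229.7, 7582, 8024 and 10484 in WT bone. Ali35 replicate 4 was the lowest and WT replicate 4 the highest, and only Ali35 replicate 3 reached the WT range. The log2 change was -0.39 ± 0.18, with an interval from -0.79 to 0.01 (adjusted p = 0.137). Probe 2 had a smaller change, -0.13 ± 0.10, with an interval from -0.36 to 0.10 (adjusted p = 0.382), on values of 6166, 6095, 5653 and 5165 in Ali35 bone, against 6455, 6013, 5915 and 6852 in WT bone.

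**Figure D2:**
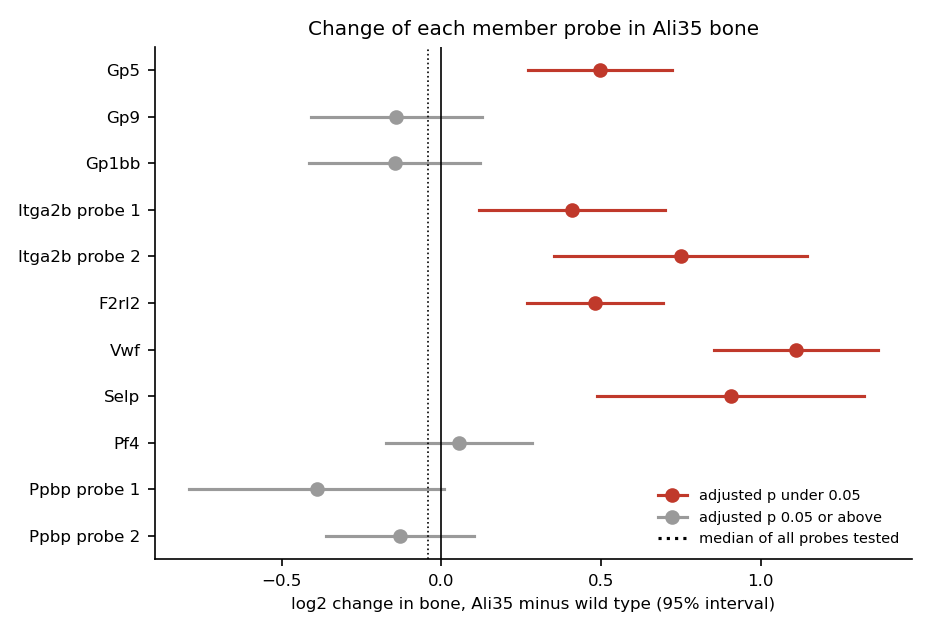
Log2 change in bone (Ali35 minus WT) of each probe with its 95% interval from limma, in colour where the adjusted p was under 0.05, and the median of all probes tested as a dotted line. The 6 called probes lie between 0.41 and 1.11, and the 5 others between -0.39 and 0.06 with intervals that hold 0.

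In 5 of the 11 probes the Ali35 and WT bone arrays did not overlap, with Ali35 above WT in each, against 28.7% of all probes tested in either direction. A call in one gene and none in another does not show a difference, so 4 ratios between genes within each bone array are given as a description, with no test, since the pairs were chosen after their values had been seen. The ratio of Gp5 to Gp9 was 1.56-fold higher in Ali35 than in WT (log2 difference 0.64), and so was that of Gp5 to Gp1bb (0.64). The ratio of Vwf to Pf4 was 2.08-fold higher (1.05) and that of Selp to Pf4 1.80-fold higher (0.85). All 4 Ali35 arrays lay above all 4 WT arrays for each ratio. A ratio of this kind does not show that either gene was unchanged.

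The 4 genes that did not pass the test are among the shortest of the 9. Over all 11516 probes of genes with a known span, the log2 change in bone rose weakly with span (Spearman's rho = 0.10 across probes, which are not independent). Of the probes in the shortest of 4 equal span classes (107 to 9418 bases) 7.53% were called higher, against 15.8% in the longest. Pf4, Ppbp, Gp9 and Gp1bb all lie in the shortest class, and so do Gp5 and F2rl2, which rose. With the trend on span taken off, a step added after seeing the data, Pf4 had a log2 change of 0.22, Ppbp -0.25 and 0.01, Gp9 -0.04 and Gp1bb -0.02, while Gp5 had 0.61, F2rl2 0.55, Vwf 1.07 and Selp 0.94. The part of gene span in these changes was not tested further.

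Other genes of the lineage, from a list of 45, were called in both directions. A probe was present for 36 of them and 29 passed the filter in bone, of which 8 were called higher, 4 lower and 17 neither, with a median log2 change of 0.16 on the brightest probe of each gene. Over all probes 12.7% were called higher and 11.9% lower, so the 4 of 29 called lower are near the share of all probes. Without Ali35 replicate 1, 6 were called higher and 3 lower, and the calls lost were those of Fermt3, Srgn and Alox12, with adjusted p = 0.0531, 0.0537 and 0.0851 by limma. The 3 largest rises were those of 2 nuclear factors and an inhibitory receptor. Zfpm1, which encodes the GATA1 partner FOG1, read 6587, 7372, 8089 and 6636 in Ali35 bone, against 1952, 2993, 4034 and 1746 in WT bone. The WT mice spread widely and still lay below every Ali35 mouse (log2 change 1.50 ± 0.24, adjusted p = 0.00358). Gfi1b, a repressor needed for megakaryocytes and red cells, read 713, 825, 897 and 809 in Ali35, against 404, 507, 557 and 418 in WT (0.79 ± 0.13, adjusted p = 0.00427). Mpig6b, the gene of an inhibitory receptor of megakaryocytes and platelets, read 1184, 1139, 1138 and 1220.2 in Ali35, against 534, 684, 787 and 490.4 in WT (0.93 ± 0.15, adjusted p = 0.00361). The groups were apart for both.

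Of the signalling genes on that list, Plcg2, a phospholipase downstream of platelet collagen receptors, rose by 0.57 ± 0.12 on the log2 scale, and Stim1, the calcium sensor of the endoplasmic reticulum, by 0.52 ± 0.13. Fermt3, the gene of kindlin-3, which activates integrins, rose by 0.72 ± 0.19, and Alox12, the gene of the platelet-type lipoxygenase, by 0.34 ± 0.11. A second, dimmer Alox12 probe had 0.37 ± 0.17 and was not called (adjusted p = 0.137, limma). Gata1, the lineage's GATA factor, rose by 0.51 ± 0.17 on its brighter probe (adjusted p = 0.0488, limma), while its second probe had -0.12 ± 0.17 (adjusted p = 0.636). The calls of Zfpm1, Mpig6b, Gfi1b and Plcg2 held in all 8 fits without 1 array. That of Stim1 was lost without WT replicate 4, those of Fermt3 and Gata1 were lost in 6 of the 8 fits, and that of Alox12 in 7.

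The 4 genes that fell were led by Clec1b, which encodes the podoplanin receptor CLEC-2. It read 90.8, 107, 148 and 59.8 in Ali35 bone, against 193, 173, 189 and 242 in WT bone. The groups were apart, with means of 101 ± 36.7 in Ali35 and 199 ± 29.6 in WT (SD, n = 4 each). The fit gave a level 2.05-fold lower in Ali35 (log2 change -1.04 ± 0.24, adjusted p = 0.0153, limma). P2rx1, an ATP-gated channel of platelets, fell by 0.54 ± 0.14 on the log2 scale, with 189.8 ± 28.8 in Ali35 and 274 ± 27.7 in WT. Srgn, the gene of the granule proteoglycan serglycin that binds platelet factor 4, had -0.87 ± 0.25 and Tbxas1, the gene of thromboxane synthase, -0.32 ± 0.10, and both calls were fragile: they were lost in 6 and 7 of the 8 fits without 1 array. The second probes of P2rx1, Srgn and Tbxas1 had -0.34, -0.45 and -0.29, and none of them was called (adjusted p = 0.0638, 0.0544 and 0.138). That of Clec1b did not pass the filter on dim probes.

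Among the 17 genes not called, Runx1 had a log2 change of 0.52, Fli1 -0.38, Nfe2 0.14 and Tal1 -0.07, all of them transcription factors of the lineage. The receptor genes F2rl3 (-0.29) and Treml1 (0.19), the tetraspanin gene Cd9 (-0.30), the adaptor gene Lcp2 (0.44) and the exchange factor gene Rasgrp2 (0.59) were not called either. The thromboxane receptor gene Tbxa2r was not called on its brighter probe (0.42, adjusted p = 0.135) and was called on the other (0.55, adjusted p = 0.0207). Vps33b, needed for alpha granules, likewise had a probe of each kind (-0.19, adjusted p = 0.359, and -0.45, adjusted p = 0.0125). A further 7 genes with a probe, Itgb3, Itga2, Tubb1, Thbs1, P2ry12, Tln1 and Syk, stayed below the filter. Nfe2, Tal1 and Vps33b were picked out after their values had been seen, and so were Septin5 and Iqgap2 for their overlap with Gp1bb and F2rl2.

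**Figure D3:**
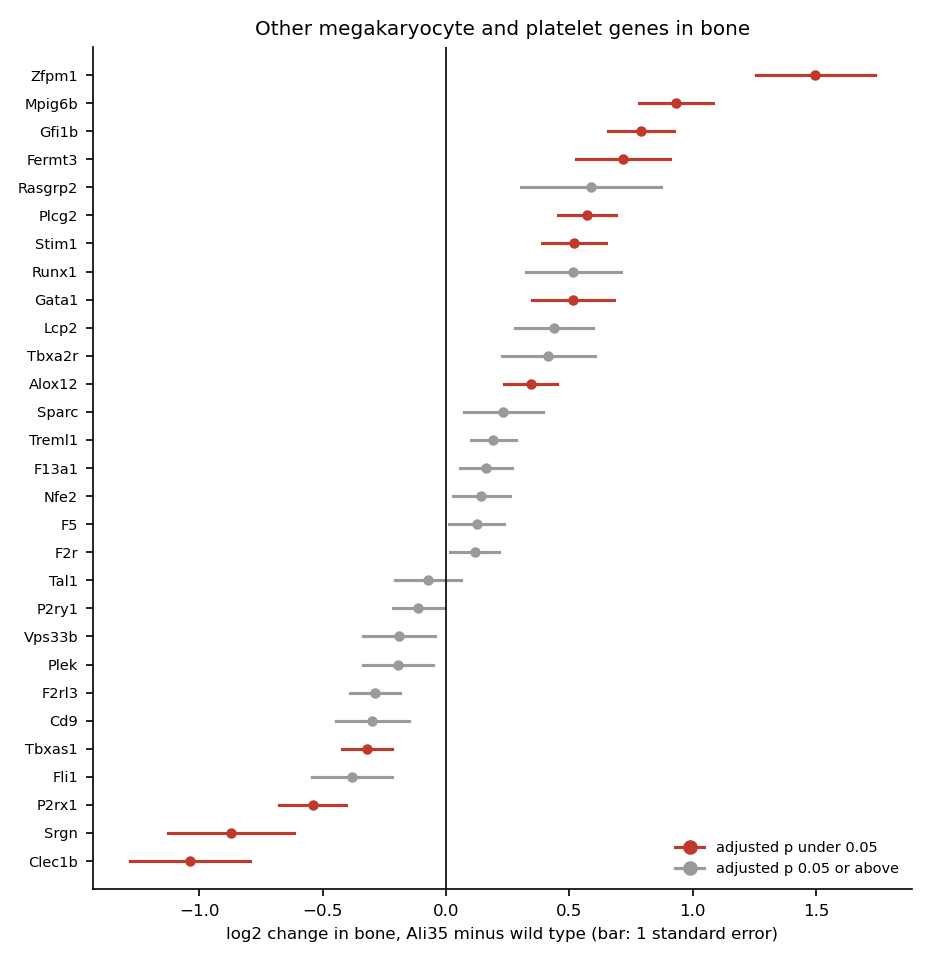
Log2 change in bone (Ali35 minus WT, bars of 1 SE) of the 29 other megakaryocyte and platelet genes that passed the filter, each on its brightest probe and ordered by the change. The 8 called rises reach from 0.34 for Alox12 to 1.50 for Zfpm1, and the 4 called falls from -0.32 for Tbxas1 to -1.04 for Clec1b.

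Vwf and Selp are also made by endothelial cells, and some markers of those cells were higher too. The 21 measured endothelial genes had a median log2 change of 0.16 in bone, where 12.7% of all probes were called higher and 11.9% lower. Of these 21 genes, 7 were called higher in Ali35 bone and none lower (limma). They included Eng, the TGF-beta co-receptor endoglin (1.02 ± 0.13), Plvap, a protein of fenestrated vessels (0.91 ± 0.17), Cdh5, the gene of VE-cadherin (0.72 ± 0.13), Robo4 (0.75 ± 0.14) and Sox18 (0.69 ± 0.11). Without Ali35 replicate 1, 6 were called higher, with Nos3 lost, and 1 lower, Emcn. Over all 8 arrays Pecam1 (0.16), Tek (-0.23) and Emcn (-0.39) were not called, and Kdr and Flt4 did not pass the filter. The summed intensity of the list ran from 7977 to 10003 in Ali35 bone, against 7729 to 8252 in WT bone. Such sums, also given below for other lists, are carried mostly by the brightest probes of a list and are only a description. The sum of the 9 genes ran from 16116 to 18510 in Ali35 bone, against 17270 to 19044 in WT bone. That of the 29 other lineage genes ran from 42498 to 47066 in Ali35 bone, against 34422 to 37334 in WT bone. The part of endothelial cells in the rise of Vwf and Selp was not tested. Pecam1 was chosen after its values had been seen, as were Tek, Emcn, Nos3 and Plvap.

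The marker lists of other cells of the marrow and its surroundings had median changes on both sides of 0 in bone. Of 11 erythroid genes, which share GATA1, FOG1 and GFI1B with megakaryocytes, 1 was higher (Kel, 0.54 ± 0.11) with a list median of 0.06, and the summed intensity ran from 85634 to 102928 in Ali35 bone, against 85453 to 92826 in WT bone. The stem and progenitor list had 0 higher and 1 lower of 6 genes (Slamf1, -0.41 ± 0.10), with a sum of 899.6 to 950.1 in Ali35, against 865 to 935 in WT. The B lymphocyte list had 2 lower of 8 (Cd79b, -0.55, and Rag1, -0.59), with a sum of 1905 to 2949 in Ali35, against 3283 to 3746 in WT. The neutrophil list had 1 higher and 1 lower of 12 (Mpo, 0.56, and Mmp8, -0.45), and the macrophage list 2 higher of 10 (Cx3cr1, 0.41, and Fcgr1, 0.68). Bone genes were higher in 4 of 7 cases, with Col1a1 at 1.91 and Sp7 at 1.06, and muscle genes in 3 of 9. The median log2 change of the bone list was 0.76, against 0.41 for the 9 genes. Over all probes 12.7% were called higher and 11.9% lower. The 1 of 11 erythroid genes called higher, and the 1 of 12 neutrophil genes called each way, are near those shares. Without Ali35 replicate 1, muscle genes were higher in 1 of 9 cases (Actn3 and Atp2a1 were lost), macrophage genes in 1 of 10 (Fcgr1 was lost) and the neutrophil gene Mmp8 lost its call, while the erythroid gene Slc4a1 was added as higher and the B lymphocyte gene Vpreb1 as lower. In the 8 fits without 1 array, Atp2a1 and Mmp8 each lost their call in 7, Cx3cr1 in 6 and Fcgr1 in 5. Actn3 lost its call in 4 of these fits, and Slamf1 and Col1a2 in 2 each. Neuron markers were near the floor in bone, with 8 of 10 below the filter. The part of these cells in the changes of the 9 genes was not tested.

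From mouse to mouse the 9 genes did not vary closely together. With the mean of its genotype subtracted from each log2 value, each gene was correlated over the 8 bone arrays with the mean of the other 8 genes, a description that rests on 8 arrays and shares their scaling. Gp1bb followed the others most closely (r = 0.51), then Vwf (0.44), Selp (0.42) and Itga2b (0.31). Gp5 (0.21), F2rl2 (0.19) and Gp9 (-0.02) followed the mean of the others little, and Pf4 (-0.45) and Ppbp (-0.48) ran the other way. In single pairs Gp5 had r = 0.70 with Gp1bb, 0.61 with Itga2b, 0.60 with Vwf, 0.28 with Pf4 and 0.18 with Gp9. Its other pairs were negative, -0.63 with Ppbp, -0.21 with Selp and -0.04 with F2rl2. Of the 36 pairs 20 were positive, with a median r of 0.10. The highest were Vwf with Gp1bb and Vwf with Itga2b (0.92 each), and the lowest was Ppbp with Gp1bb (-0.71). In Ali35 replicate 3 Vwf, Itga2b and Gp1bb were all low for their group while Pf4 and Ppbp were high, and in Ali35 replicate 4 Ppbp deviated by -0.49 on the log2 scale.

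**Figure D4:**
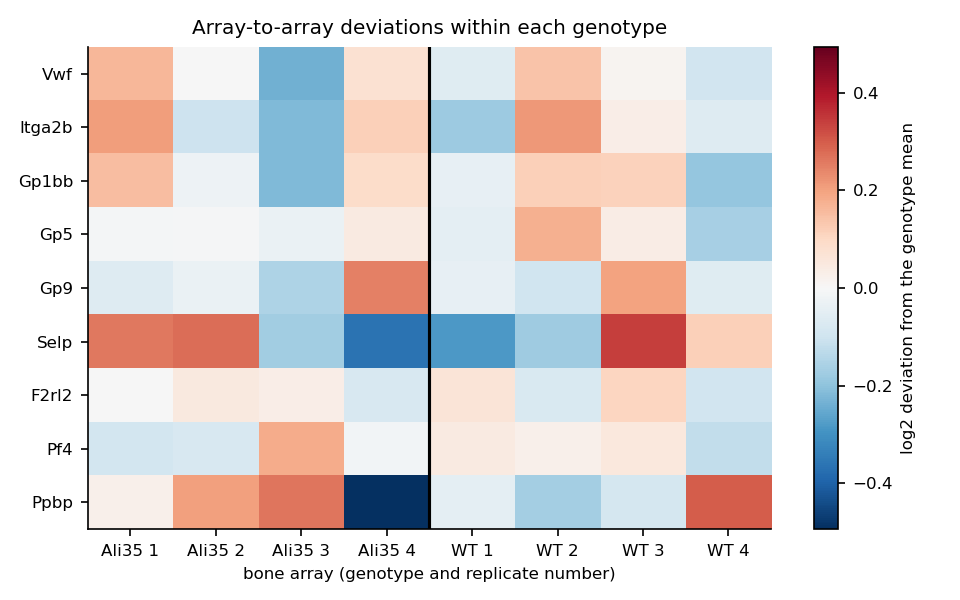
Deviation of each gene (brightest probe, log2 scale) from the mean of its genotype on each of the 8 bone arrays, Ali35 left and WT right. Vwf, Itga2b and Gp1bb share their high and low Ali35 arrays, and Ppbp has its lowest value, -0.49, on Ali35 replicate 4.

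Outside the 9 genes, the 6 with the highest r to their mean over the 8 bone arrays were Rnpep, an aminopeptidase gene (0.98), Kmt5a, a histone methyltransferase gene (0.97), Ptpn14 (0.96), Ccno (0.96), Snrpc (0.95) and Slc12a9 (0.95). The top 5% of all probes tested began at r = 0.68, so high values are common with 8 arrays. Rnpep (log2 change 0.59 ± 0.12) and Slc12a9 (0.61 ± 0.15) were also called higher in Ali35 bone, and the other 4 were not called.

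In brain the same comparison was made at 3 days of age, and only 3 of the 9 genes reached the filter. No probe of the 9 genes was called, against 3.64% of all 10922 probes tested by limma, of which 2574 had an unadjusted p under 0.05. Vwf read 61.6, 72.2, 57.5 and 51.6 in Ali35 brain, against 48.7, 80.1, 64.9 and 62.9 in WT brain. The groups overlapped throughout (log2 change -0.07 ± 0.16, adjusted p = 0.830). Gp1bb averaged 61.0 ± 6.33 in Ali35 brain and 57.8 ± 11.6 in WT brain (0.09 ± 0.14, adjusted p = 0.732), where Septin5, which overlaps it, averaged 504 and 505. Probe 1 of Itga2b lay at the floor, with 15.5, 16.9, 17.8 and 16.04 in Ali35 brain, against 27.0, 18.4, 20.1 and 25.5 in WT brain. Its groups did not overlap, with Ali35 the lower (log2 change -0.43 ± 0.13, adjusted p = 0.0870), and it missed the threshold. It was the only one of the 3 probes with an unadjusted p under 0.05 (0.00740).

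The other 6 genes did not pass the filter in brain. Pf4 read 8.72, 12.6, 7.43 and 14.3 in Ali35 brain, against 26.2, 16.04, 15.2 and 18.6 in WT brain. Every Ali35 value was below every WT value, 5 of the 8 arrays were below 16, and no test was made. The share of all brain probes with no overlap was not computed, so neither this separation nor that of Itga2b probe 1 can be set against it. Selp, Gp5, F2rl2, Gp9, probe 2 of Itga2b and both probes of Ppbp were below 16 on all 8 brain arrays. Of the other genes of the lineage, 12 passed the filter in brain and none was called by limma. An unadjusted p under 0.05 was found for 3 of these 12, against 2574 of all 10922 probes, a similar share. They were Tbxas1 (log2 change 0.42), Tal1 (0.42) and Vps33b (-0.29), in both directions. Zfpm1, which was not called, averaged 421 in Ali35 brain and 424 in WT brain. Of 5 erythroid genes that passed the filter in brain, 1 was called lower, against 3.64% of all probes called in either direction. It was Alas2 (log2 change -1.19 ± 0.28, adjusted p = 0.0457, limma). Hba-a1 (-0.95), Hbb-b2 (-1.12), Slc4a1 (-0.86) and Tfrc (0.10), named to complete the list, were not called, and the list median was -0.95. The part of blood cells in the brain values of the 9 genes was not tested.

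**Figure D5:**
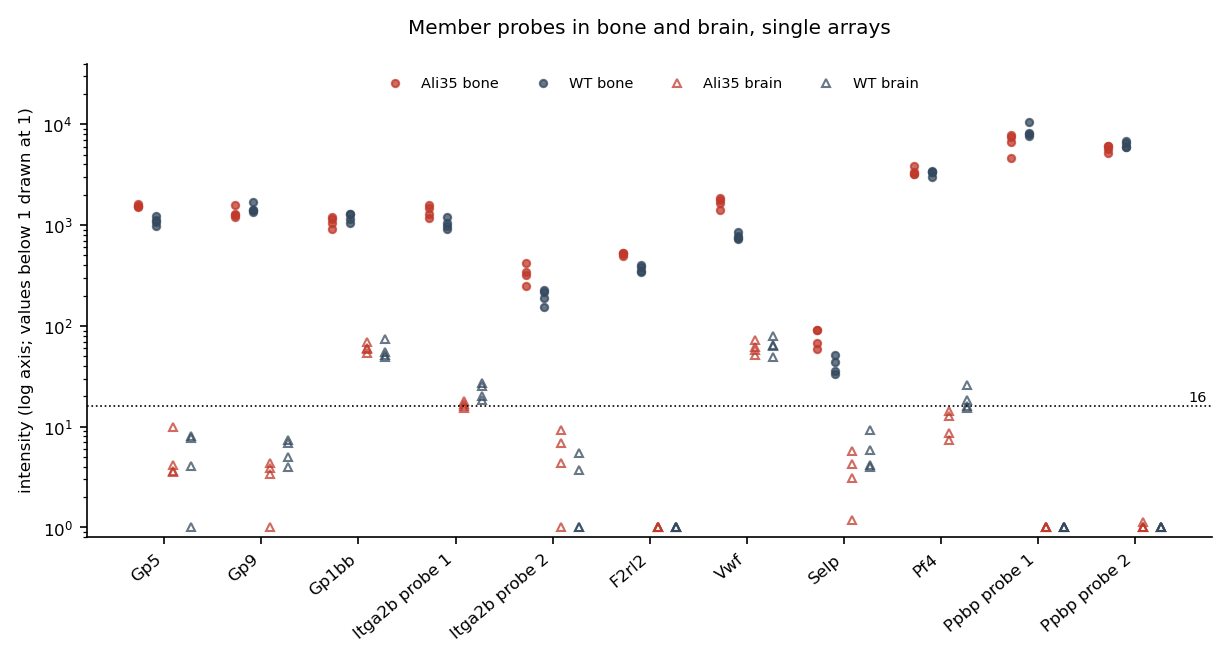
Intensity (log axis, values below 1 drawn at 1) of the 11 probes on all 16 arrays, bone as filled circles and brain as open triangles, with the floor of 16 as a dotted line. In brain only Vwf, Gp1bb and the first Itga2b probe reached the floor on at least 4 of the 8 arrays.

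Whether the change in bone differed from that in brain was tested with an interaction term over all 16 arrays, restricted to 9225 probes that passed the filter in each tissue, of which 24.4% were called. Of the 3 probes of the 9 genes that could enter, 2 were called. The change of Vwf was larger in bone than in brain by 1.18 ± 0.20 on the log2 scale (adjusted p = 0.000762, limma), and that of Itga2b probe 1 by 0.84 ± 0.18 (adjusted p = 0.00423). With a floor of 32, which sets all its brain values to the floor, the difference for Itga2b probe 1 was 0.41 (adjusted p = 0.0283). For Gp1bb the difference was -0.24 ± 0.19 (adjusted p = 0.364). For the other genes the brain values at the floor allow no such test.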

How the data were processed

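Transcripts were measured in bone and brain of Ali35 and WT mice on 16 one-colour Illumina bead arrays. The authors deposited linear intensity values per probe, processed with GenomeStudio 2011.1, per the submitters' processing notes. The values show background subtraction and scaling within each tissue, by a method not given in the sources used here. One non-normalized table holds 32 columns under running numbers that match no label, and these were not used. Of 25697 probes, 23978 have 1 gene symbol, 1719 have none and 23962 have an Entrez identifier in the RefSeq table of GRCm38.p6. An intensity of 16 was reached by 47.3% of probes per bone array and 42.3% per brain array. Precision is limited by the number of mice.

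Values below 16 were set to 16 and log2 was taken. Probes at 16 or more on at least 4 of the 8 arrays of a tissue were kept. Each tissue was fitted across all kept probes with limma 3.58.1 (lmFit, eBayes) in R 4.3.3, and probes were called at a two-sided Benjamini-Hochberg adjusted p under 0.05. The code was tested on simulated data. SE is limma's moderated standard error.

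The members and lists were chosen with earlier results of these data known. Named were all members, up to 20 genes of lowest p of the other lineage list, up to 4 of each marker list, the 6 genes of highest likeness, and Xist and Eif2s3y. Alternatives covered the floor, filter, scaling, variance model, array weights, threshold, a replicate block and leaving out each array. The adjustment for gene span and the within-array ratios were added after seeing the data, the ratios with no test. Plots used Python 3.11.15 with matplotlib 3.10.9 and numpy 2.4.6.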

Additional observations from a re-analysis of the deposited data

Results flagged for a closer look

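In all, 3 results of the 9 genes stood out. Pf4 in bone had 1 array apart from its group: WT replicate 4 read 3031, against 3356 for the nearest other WT mouse, a gap of 0.845 of the range of the group. Of 27 groups of 4 arrays examined this way it was the only one past the limit, and chance marks about 1 in 20 groups. The other 2 concern the tissues. The change of Vwf was larger in bone than in brain by 1.18 on the log2 scale, and that of Itga2b probe 1 by 0.84, both by the interaction test. Itga2b probe 1 lay at the floor in brain, and tissue and age cannot be told apart.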

How the results depend on the processing

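Over the member probes, 338 values were recomputed under other settings. Of these 319 kept their direction and side of the threshold (for values with no test, moved by less than the spread), 15 lost a call, 1 moved (Pf4 in bone, 0.22 with the gene span trend taken off, a step added after seeing the data) and 3 reversed. With no filter on dim probes 3 member probes were called in bone in place of 6 (Vwf, Gp5 and F2rl2). Selp had an adjusted p = 0.0625 there by limma, and the Itga2b probes 0.131 and 0.0869. At a threshold of 0.01 both Itga2b probes lost their calls. Probe 1 of Itga2b also lost its call with a floor of 8 (adjusted p = 0.0519) or 32 (0.0545) and with array weights (0.0605). Leaving out 1 array gave 5 to 6 called probes in bone, log2 changes from -0.0059 to 0.085 for Pf4 in bone and from -0.193 to 0.047 for Vwf in brain (0.0075 without Ali35 replicate 4). These reversals were of changes that were not called. Keeping probes from either tissue gave 6 called differences between bone and brain in place of 2, as brain values at the floor then count as no change. Without centring on the genotype means, the median r of a member with the others was 0.81 in place of 0.21, since the changes between genotypes then enter. Same-numbered samples of the 2 genotypes had correlations of their deviations from -0.12 to 0.16 in bone and 0.01 to 0.14 in brain. Differently numbered samples were not set beside them, so these values cannot decide whether the numbers pair the mice. With the replicate block 5 member probes were called in bone, probe 1 of Itga2b being lost (adjusted p = 0.0978), 0 in brain and 2 between tissues. Over all probes, 3006 were called in bone. Other settings gave 1430 (no filter), 1034 (threshold of 0.01), 1759 (without WT replicate 1) and 1634 (without WT replicate 4). In brain 398 were called, and 19 with no filter, 248 with a floor of 8, 798 with log2 of the value plus 32, 850 with eBayes with trend and robust, 206 with the replicate block, 8 at 0.01 and 43 to 245 without 1 array. The cause of these shifts was not tested. For the other named genes 888 of 1038 values were unaltered in direction and call, 117 lost a call, 32 gained one, 1 moved (S100a8 in bone) and 0 reversed. Itga2b probe 1 in brain and Hoxa9 in bone gave no value with a floor of 32, nor with a filter of 16 or more on all 8 arrays. With a floor of 32 the difference between tissues for Itga2b probe 1 was 0.41 in place of 0.84. Signals near 16, as for most of these genes in brain, set the limit of what could be measured.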
